A study of Homo sapiens with 18 samples.

Results

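The genes described here encode the enzymes that build fatty acids de novo: SLC25A1, ACLY, ACSS2 and ME1, which supply acetyl-CoA and reducing power, ACACA and ACACB, which carboxylate acetyl-CoA, FASN, the cytosolic synthase, and MCAT and OXSM of the separate mitochondrial pathway. They were chosen by name for their place in the pathway, with earlier results of these data known, and were found by Ensembl identifier, 9 genes among 60483 in the expression table. Expression was measured in 18 samples of OVCAR5, an established human ovarian cancer cell line labelled as wild type, with 3 replicates in each of 6 conditions. All cells were kept for 24 h in medium with albumin free of fatty acids and received DMSO alone, CAY10566 alone, stearate+DMSO, stearate+CAY10566, oleate+DMSO or oleate+CAY10566. Stearate, a saturated fatty acid, and oleate, the monounsaturated fatty acid made from it, were given at 50 µM, and CAY10566, an inhibitor of the desaturase SCD1 that makes this conversion, at 1 µM. The whole series comes from a single cell line, so it describes this line only. No label says whether replicates were separate cultures, so p-values measure the spread between these samples, which may be technical.

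In the cytosolic pathway, citrate made in mitochondria is carried out by SLC25A1 and cleaved by ACLY into acetyl-CoA, while ACSS2 makes acetyl-CoA from acetate. ACACA turns acetyl-CoA into malonyl-CoA, and FASN extends acetyl-CoA with malonyl-CoA to palmitate, using NADPH of which ME1 is a source. Many carcinomas express this pathway at a high level, the transcription factor SREBP-1 drives many of its genes, and unsaturated fatty acids are known to restrain SREBP-1. The mitochondrial pathway, with MCAT and OXSM, makes the acyl chain from which lipoic acid is built.

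Promoter sequence is shown for 3 of the 4 genes that fell with oleate, because these genes moved in the same direction in that comparison. RefSeq promoter windows on GRCh38.p14 were matched for 7 of the 9 genes, in 13 windows of 250 bases upstream of an annotated start, and not for FASN and OXSM. Each sequence is printed 5′ to 3′ on the gene's strand, without bases that lie in an annotated exon of another transcript, and capitals mark a CCAAT box (CCAAT or ATTGG) or an antioxidant response element (TGACNNNGC or GCNNNGTCA).
SLC25A1, chr22:19178740-19178986, minus strand: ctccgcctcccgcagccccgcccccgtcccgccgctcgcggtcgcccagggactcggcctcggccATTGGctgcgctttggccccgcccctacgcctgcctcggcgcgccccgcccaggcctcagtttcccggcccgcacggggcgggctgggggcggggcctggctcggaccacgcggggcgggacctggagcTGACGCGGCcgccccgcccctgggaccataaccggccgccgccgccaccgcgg
ME1, chr6:83431052-83431301, minus strand: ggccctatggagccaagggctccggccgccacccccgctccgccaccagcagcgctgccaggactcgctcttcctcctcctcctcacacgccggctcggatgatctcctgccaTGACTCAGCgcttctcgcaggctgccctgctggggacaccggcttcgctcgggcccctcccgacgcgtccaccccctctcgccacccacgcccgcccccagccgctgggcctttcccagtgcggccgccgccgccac
ACSS2, chr20:34876362-34876571, plus strand: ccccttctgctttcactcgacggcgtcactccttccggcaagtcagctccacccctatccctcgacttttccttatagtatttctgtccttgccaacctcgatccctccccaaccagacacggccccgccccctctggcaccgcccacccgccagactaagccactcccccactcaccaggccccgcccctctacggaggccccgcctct
SLC25A1 held an inverted CCAAT box whose first base lay 185 bases upstream of the start, and the letters TGACGCGGC at 56 bases, whose last base is also the first of a GC box (GGGCGG or CCGCCC). ME1 held TGACTCAGC, the letters of an antioxidant response element, 137 bases upstream, and the ACSS2 window shown held neither motif. GC boxes numbered 8 in the SLC25A1 window, 1 in that of ME1 and 3 in that of ACSS2. A second ACSS2 window (chr20:34874739-34874988), not printed, held an inverted CCAAT box 123 bases upstream of its start and 1 GC box. A sterol regulatory element (TCACNCCAC or GTGGNGTGA) and an E-box (CACGTG, its own reverse complement) were found in none of the 13 windows. CCAAT boxes were in 7 of the 13 windows, some of ACACA, ACACB and ACLY among them, though not in every ACACA and ACACB window. GC boxes were in 11 and the antioxidant response element in 2, those of ME1 and SLC25A1. The ACLY windows overlapped each other, as did the MCAT windows, so boxes they share were counted in each. The 13 windows are thus not separate sequences. Over 35116 RefSeq windows of the same length, both strands searched, the sterol regulatory element was present in 0.883%, the E-box in 6.34%, the antioxidant response element in 10.9%, the CCAAT box in 32% and the GC box in 42.6%. These matches describe letters in a window and do not show binding. Only exact strings were searched, and one present in 0.883% of all windows would rarely be met in 13. The lack of a sterol regulatory element match therefore does not show that these promoters lack such a site.

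The values are TPM, the usual estimate of each gene's share of all transcripts with the length of the transcript taken into account. Every sample sums to the same total, the number of reads behind a value is unknown, and precision rests on the spread between samples. Replicates of one condition correlated across genes at 0.982 to 0.987, and samples of different conditions at 0.978 to 0.987. Median-of-ratios size factors, which measure how far most genes of a sample lie above or below the average, ran from 0.942 to 0.968 in 5 of the 6 samples without fatty acid and reached 1.02 in CAY10566 replicate 3. Where leaving this sample out changed the call of 1 of the 9 genes, the change is stated. Of 10 epithelial and ovarian carcinoma markers, 8 had a mean of at least 1 TPM, with KRT8 at 895 TPM, whereas MUC16 (0.632 TPM) and WT1 (0.126 TPM) were near 0. The adipocyte markers, of interest because adipocytes also make fatty acids, had 0 of 4 at 1 TPM or more, with ADIPOQ at 0, endothelial markers 0 of 3, and fibroblast and leukocyte markers 1 of 6 and 1 of 5, namely COL1A1 (5.04 TPM) and CD68 (94.5 TPM), with PTPRC near 0 (0.00556 TPM). The summed level of the epithelial markers was 3194 to 3333 TPM in the samples without fatty acid, 2585 to 2796 TPM with stearate and 2905 to 3242 TPM with oleate, and its part in the results was not tested. In bulk RNA, fewer cells of a kind and less RNA per cell cannot be told apart.

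As mean TPM over all 18 samples, the genes followed the order SLC25A1 (112 TPM), ACLY (76.2 TPM), FASN (74.4 TPM), ACSS2 (42.6 TPM), MCAT (28.1 TPM), ME1 (25.0 TPM), ACACA (16.7 TPM), OXSM (11.9 TPM) and ACACB (0.46 TPM). The order of ACLY and FASN turned with the fatty acid: the ratio of FASN to ACLY ran from 0.948 to 1.67 without fatty acid, above 1 in 5 of 6 samples, from 0.710 to 1.1 with stearate, and from 0.666 to 0.975 with oleate, where ACLY was above FASN in every sample. Neighbours further down also overlapped in their ranges, MCAT with ME1, ME1 with ACACA and ACACA with OXSM, while every ACSS2 value, from 34.07 TPM upward, lay above every MCAT value, which reached 31.76 TPM. SLC25A1 lay above ACLY in all samples, with a lowest SLC25A1 value of 90.21 TPM and a highest ACLY value of 89.37 TPM. Of the 13789 genes with a mean of at least 1 TPM, 91.0% had a lower mean than SLC25A1 and 45.7% a lower mean than OXSM. ACACB, the carboxylase isoform held at the outer mitochondrial membrane and known for restraining fatty acid oxidation, was low throughout, from 0.23 to 0.83 TPM, so it was not tested.

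**Figure D1:**
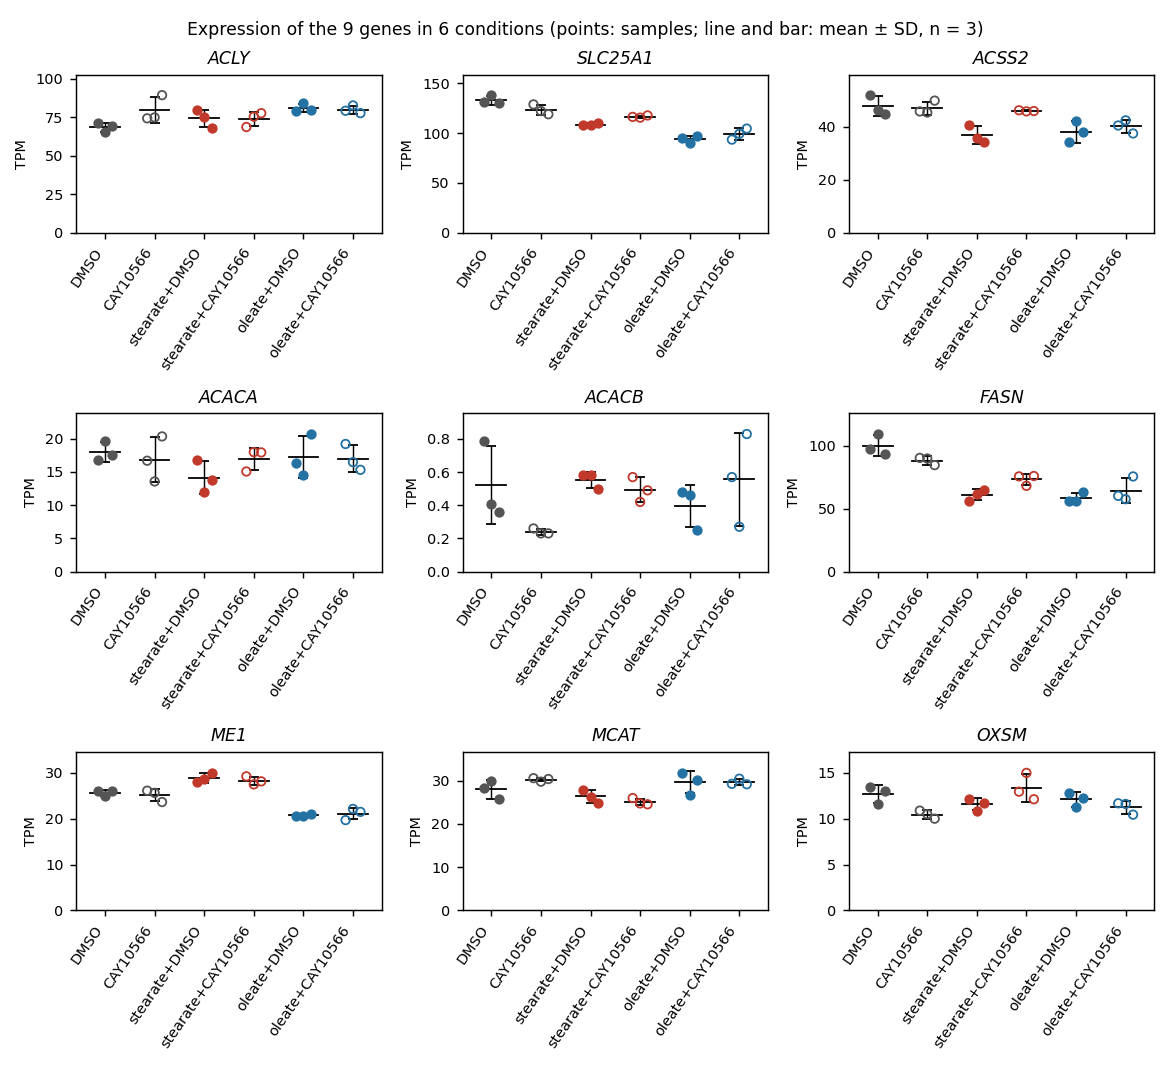
Expression of the 9 genes in TPM (vertical axes, starting at 0) in the 6 conditions, where points are samples and lines with bars give the mean ± SD (n = 3). FASN and SLC25A1 were lower in all fatty acid samples than in all samples without fatty acid, ME1 was highest with stearate and lowest with oleate, and ACACB stayed under 1 TPM.

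Each fatty acid was compared with no fatty acid over 6 samples against 6, with and without CAY10566 pooled, and both comparisons share the same 6 control samples. Fold changes are differences of log2(TPM + 1), a scale on which changes of low genes are understated. Limma was fitted to all 13789 genes, p-values were adjusted over all of them by the Benjamini-Hochberg method, and a gene passed at a false discovery rate (FDR) under 0.05 and was called if its log2 difference also exceeded 0.32 in size. With stearate, FASN, SLC25A1 and MCAT fell and ME1 rose, and with oleate FASN, SLC25A1, ACSS2 and ME1 fell. In counts, 1 of the 8 tested genes passed as higher with stearate, where 13.5% of all tested genes did, and 3 as lower, against 5.97%. With oleate, 0 passed as higher, against 23.0% of all tested genes, and 4 as lower, against 2.70%. One gene was called as lower with stearate (1.89% of all tested genes) and 2 with oleate (0.435%). The median log2 difference of the 8 genes was -0.16 with stearate and -0.15 with oleate, while that of all tested genes was 0.06 and 0.09. With median-of-ratios size factors the split of all tested genes was more even, 7.92% higher and 10.2% lower with stearate and 9.07% higher and 9.12% lower with oleate, and of the 8 genes 0 passed as higher and 4 as lower with each. The number called as lower with oleate was then 4 (1.05% of all tested genes), as it was with the length and GC trend removed (0.881%).

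FASN, the multifunctional enzyme that releases palmitate, showed the largest change of the 8 tested genes with either fatty acid. It lies at chr17:82078338-82098294 on the minus strand of GRCh38, and its canonical transcript has 43 exons. Without fatty acid, FASN was 97.49, 109.49 and 93.77 TPM with DMSO and 90.49, 89.99 and 84.72 TPM with CAY10566. With stearate it was 56.37, 61.46 and 65.04 TPM with DMSO and 75.74, 68.23 and 76.05 TPM with CAY10566. With oleate it was 56.38, 55.97 and 63.53 TPM with DMSO and 60.21, 57.59 and 75.7 TPM with CAY10566. All 12 fatty acid samples lay below all 6 samples without it. FASN averaged 94.3 ± 8.56 TPM (SD, n = 6) without fatty acid, 67.2 ± 7.84 TPM with stearate and 61.6 ± 7.48 TPM with oleate. The log2 difference was -0.49 with stearate (SE 0.08, limma adjusted p = 0.000409) and -0.61 with oleate (SE 0.08, limma adjusted p = 0.000361). Stearate and oleate samples overlapped, and their FASN difference, 0.12 on the log2 scale with a 95% interval from -0.05 to 0.29, did not pass (limma adjusted p = 0.304). Without CAY10566 replicate 3, FASN was lower by -0.52 with stearate and -0.64 with oleate on the log2 scale, and both still passed.

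Among the suppliers of acetyl-CoA, SLC25A1, the mitochondrial citrate carrier, followed FASN most closely. SLC25A1 (chr22:19175581-19178739, minus strand) was 131.24, 138.13 and 129.95 TPM with DMSO and 128.85, 122.15 and 118.95 TPM with CAY10566. With stearate it was 107.9, 108.11 and 109.92 TPM with DMSO and 116.3, 115.54 and 117.74 TPM with CAY10566. With oleate it was 94.83, 90.21 and 96.71 TPM with DMSO and 93.47, 99.32 and 104.55 TPM with CAY10566. The 3 fatty acid groups did not overlap at any point: every oleate sample was below every stearate sample, and these were below every sample without fatty acid. The group means were 128 ± 6.83 TPM without fatty acid, 113 ± 4.43 TPM with stearate and 96.5 ± 4.99 TPM with oleate (SD, n = 6). SLC25A1 fell by 0.19 on the log2 scale with stearate (SE 0.04, limma adjusted p = 0.0033) and by 0.41 with oleate (SE 0.04, limma adjusted p = 1.59e-05), and the oleate change was also beyond 0.32. Stearate and oleate themselves differed for SLC25A1, by 0.22 on the log2 scale (SE 0.04, limma adjusted p = 0.000581).

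ACLY, which cleaves the exported citrate, passed in neither pooled comparison. ACLY (chr17:41866917-41930542, minus strand) was 65.52, 72.7 and 89.37 TPM as lowest, median and highest value without fatty acid. The same values were 68.32, 75.34 and 79.4 TPM with stearate and 77.68, 79.67 and 84.03 TPM with oleate. Groups overlapped, with the highest value of all in CAY10566 replicate 3. The log2 difference of ACLY was 0.01 with stearate (95% interval -0.11 to 0.13, limma adjusted p = 0.954) and 0.13 with oleate (95% interval 0.01 to 0.25, limma adjusted p = 0.115). Without CAY10566 replicate 3 the oleate difference was 0.18 and passed (limma adjusted p = 0.00371). The difference between stearate and oleate, -0.12, did not pass with all samples (limma adjusted p = 0.149). It passed without that sample (limma adjusted p = 0.0423), which lies outside the contrast. Each of these differences passed in only 1 of the 18 fits that leave out a sample. With size factors the oleate difference was 0.03 (limma adjusted p = 0.725), and with the dependence on length and GC content removed it was 0.01 (limma adjusted p = 0.932).

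ACSS2, the cytosolic and nuclear acetyl-CoA synthetase that uses acetate, passed with oleate. ACSS2 (chr20:34872146-34927962, plus strand) was 51.93, 46.46 and 44.73 TPM with DMSO and 45.78, 45.38 and 49.87 TPM with CAY10566. With oleate it was 34.07, 42.17 and 37.98 TPM with DMSO and 40.47, 42.4 and 37.46 TPM with CAY10566, all below the samples without fatty acid. With stearate the samples split: those with DMSO were at 40.55, 35.77 and 34.38 TPM and those with CAY10566 at 46.22, 45.81 and 45.92 TPM, inside the range of the samples without fatty acid. ACSS2 fell by 0.27 on the log2 scale with oleate (SE 0.07, limma adjusted p = 0.0129). With stearate the log2 difference, -0.20 (SE 0.07), did not pass in the pooled fit (limma adjusted p = 0.0684), but passed with size factors (-0.25, limma adjusted p = 0.0211), with CAY10566 as a covariate (limma adjusted p = 0.0478), with the length and GC trend removed (-0.22, limma adjusted p = 0.0376) and in 3 of the 18 fits that leave out a sample (lowest limma adjusted p = 0.0414). The ratio of ACLY to ACSS2 in TPM averaged 1.57 ± 0.158 without fatty acid, 1.81 ± 0.240 with stearate and 2.07 ± 0.142 with oleate (SD, n = 6). The ratio was not tested, and it compares transcripts, not flux through the citrate and acetate routes.

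ME1, the cytosolic malic enzyme that yields NADPH and pyruvate, was the only one of the 8 genes to pass in opposite directions with the 2 fatty acids. ME1 (chr6:83210402-83431051, minus strand) was 26.07, 24.96 and 26.03 TPM with DMSO and 26.13, 25.65 and 23.65 TPM with CAY10566. With stearate it was 27.98, 28.67 and 30.01 TPM with DMSO and 29.26, 27.5 and 28.16 TPM with CAY10566. With oleate it was 20.6, 20.62 and 20.96 TPM with DMSO and 19.7, 22.15 and 21.5 TPM with CAY10566. Again no group overlapped another, but the order differed from that of SLC25A1, with stearate on top and the samples without fatty acid in the middle. ME1 fell by 0.27 on the log2 scale with oleate (SE 0.04, limma adjusted p = 0.000382) and rose by 0.16 with stearate (SE 0.04, limma adjusted p = 0.0044). The rise with stearate depended on scaling: it was 0.11 with size factors (limma adjusted p = 0.108) and 0.06 once the dependence on transcript length and GC content was removed from each sample (limma adjusted p = 0.315). Stearate against oleate, 0.43 on the log2 scale (SE 0.04, limma adjusted p = 7.53e-08), was the largest difference of the 8 genes in that comparison, was beyond 0.32 and passed under both scalings, at 0.47 and 0.43.

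ACACA, the cytosolic acetyl-CoA carboxylase and the committed step of the pathway, did not pass. ACACA (chr17:37084992-37406836, minus strand) was 13.56, 17.17 and 20.34 TPM as lowest, median and highest value without fatty acid, 11.96, 15.9 and 17.97 TPM with stearate and 14.51, 16.43 and 20.7 TPM with oleate. The groups overlapped over most of their range. The log2 difference was -0.16 with stearate (95% interval -0.38 to 0.07, limma adjusted p = 0.32) and -0.03 with oleate (95% interval -0.25 to 0.20, limma adjusted p = 0.889). These intervals are wide enough to hold a change as large as that of SLC25A1 with stearate. The ratio of FASN to ACACA in TPM averaged 5.49 ± 0.800 without fatty acid, 4.38 ± 0.708 with stearate and 3.66 ± 0.691 with oleate (SD, n = 6).

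Of the mitochondrial pair, MCAT, which loads malonyl groups onto the acyl carrier protein, passed with stearate and OXSM, the condensing enzyme, did not. MCAT (chr22:43132209-43143398, minus strand) was 25.68, 29.81 and 30.54 TPM as lowest, median and highest value without fatty acid, 24.51, 25.39 and 27.88 TPM with stearate and 26.75, 29.71 and 31.76 TPM with oleate. The stearate values were mostly lower, and 3 of them (25.94, 26.2 and 27.88 TPM) lay above DMSO replicate 3 (25.68 TPM), the lowest sample without fatty acid. MCAT fell by 0.17 on the log2 scale with stearate (SE 0.05, limma adjusted p = 0.0184) and differed by 0.03 with oleate (limma adjusted p = 0.744), and stearate against oleate gave -0.20 (SE 0.05, limma adjusted p = 0.00713). The pooled stearate fall of MCAT lay mostly in the samples with CAY10566 (-0.26, limma adjusted p = 0.0334). In DMSO alone it was -0.08 and did not pass (limma adjusted p = 0.424). OXSM (chr3:25782917-25794534, plus strand) was 10.01, 11.27 and 13.52 TPM as lowest, median and highest value without fatty acid, 10.84, 12.12 and 15.01 TPM with stearate and 10.45, 11.65 and 12.86 TPM with oleate. Its log2 differences were 0.10 with stearate (limma adjusted p = 0.396) and 0.02 with oleate (limma adjusted p = 0.899).

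**Figure D2:**
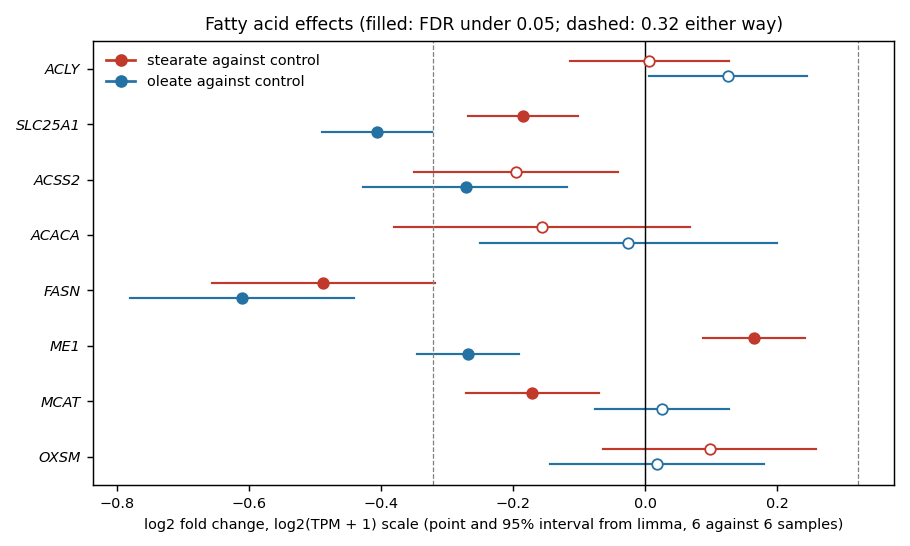
Log2 fold change of the 8 tested genes on the log2(TPM + 1) scale with stearate (red) and oleate (blue) against no fatty acid, with 95% intervals from limma (6 samples against 6, shared controls). Filled points passed FDR under 0.05 and dashed lines mark 0.32 either way: FASN lay at -0.49 and -0.61, SLC25A1 at -0.19 and -0.41, and ME1 at 0.16 and -0.27.

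Whether a group of samples stood apart without any overlap was also counted. With stearate, 1 of the 8 tested genes, ME1, lay wholly above the samples without fatty acid, as did 4.70% of all tested genes, and 2, FASN and SLC25A1, wholly below, against 3.09%. With oleate, 0 lay wholly above (3.49% of all tested genes) and 4 wholly below (0.573%), namely FASN, SLC25A1, ACSS2 and ME1. Stearate set against oleate directly had 2 genes wholly above, ME1 and SLC25A1 (2.94% of all tested genes), and 0 wholly below (7.28%). In the same direct comparison 2 genes passed as higher with stearate (6.85% of all tested genes) and 1, MCAT, as lower (14.3%), and ME1 was the gene called as higher (1.60%). With size factors the same 2 and 1 genes passed, where 10.4% of all tested genes did as higher and 11.5% as lower.

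The comparison was then repeated separately in the samples with DMSO and with CAY10566, 3 against 3, within a model of all 6 conditions. With DMSO, stearate lowered 3 of the 8 genes, FASN, ACSS2 and SLC25A1 (3.53% of all tested genes passed as lower), and 0 passed as higher (10.5%). Oleate with DMSO lowered 4, FASN, SLC25A1, ACSS2 and ME1 (3.10%), and raised 1, ACLY (21.1%). In the DMSO samples FASN fell by 0.71 on the log2 scale with stearate (limma adjusted p = 0.000174) and by 0.76 with oleate (limma adjusted p = 0.000626). SLC25A1 fell there by 0.29 (limma adjusted p = 0.000854) and 0.50 (limma adjusted p = 3.81e-05), and ACSS2 by 0.36 (limma adjusted p = 0.00886) and 0.32 (limma adjusted p = 0.0102). ME1 fell by 0.30 with oleate (limma adjusted p = 0.00318), while its stearate difference, 0.16, did not pass (limma adjusted p = 0.057), but did without CAY10566 replicate 3 or oleate+CAY10566 replicate 1, both outside the contrast (limma adjusted p = 0.0375 and 0.046), and with a mean of at least 5 TPM (limma adjusted p = 0.0487). ACLY rose by 0.24 with oleate in DMSO (limma adjusted p = 0.0227), a call lost with size factors (0.11, limma adjusted p = 0.123), with the length and GC trend removed (0.09, limma adjusted p = 0.198), with no filter on TPM (limma adjusted p = 0.0553) and without any one of DMSO replicates 2 or 3 or oleate+DMSO replicates 2 or 3 (limma adjusted p from 0.0508 to 0.0949). ACACA with stearate in DMSO was lower by -0.34 and did not pass (limma adjusted p = 0.141), but it was lower by -0.51 and passed once the dependence on length and GC content was removed (limma adjusted p = 0.0154).

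With CAY10566 present, fewer genes passed. Oleate lowered 1 of the 8 genes, SLC25A1 (0.0508% of all tested genes passed as lower), by 0.31 on the log2 scale (limma adjusted p = 0.00541), and 0 passed as higher (0.0580%). FASN, at -0.46, missed the threshold there (limma adjusted p = 0.0585) and passed without CAY10566 replicate 3 (-0.49, limma adjusted p = 0.0277) or without oleate+CAY10566 replicate 3 (-0.58, limma adjusted p = 0.00894), with a mean of at least 5 TPM (limma adjusted p = 0.0414) and with size factors (-0.53, limma adjusted p = 0.0479). ME1, at -0.24, also missed it (limma adjusted p = 0.101) and passed without CAY10566 replicate 3 (-0.28, limma adjusted p = 0.0255) and with the length and GC trend removed (-0.31, limma adjusted p = 0.0356). With stearate and CAY10566, 1 gene passed as higher, OXSM (2.18% of all tested genes), and 1 as lower, MCAT (2.57%). In DMSO neither passed with stearate, OXSM at -0.13 (limma adjusted p = 0.32) and MCAT at -0.08 (limma adjusted p = 0.424). OXSM was 10.89, 10.5 and 10.01 TPM with CAY10566 alone and 12.96, 15.01 and 12.13 TPM with stearate+CAY10566, a log2 difference of 0.32 (limma adjusted p = 0.0373). MCAT was 30.54, 29.73 and 30.34 TPM with CAY10566 alone and 25.94, 24.71 and 24.51 TPM with stearate+CAY10566, a log2 difference of -0.26 (limma adjusted p = 0.0334). Both were lost without a filter on TPM, OXSM also with size factors (limma adjusted p = 0.0624), and MCAT was lost with any one of the 6 samples compared left out and OXSM with any one of 5 of them. FASN with stearate and CAY10566 was lower by -0.27 and did not pass (limma adjusted p = 0.109), although it did without oleate+CAY10566 replicate 3, a sample outside the contrast (limma adjusted p = 0.0415).

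**Figure D3:**
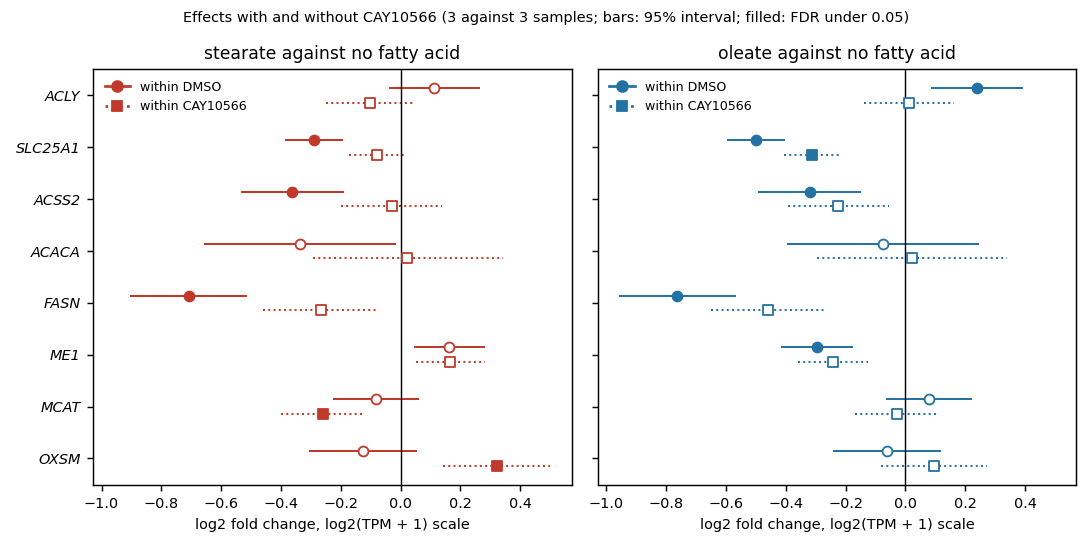
Log2 fold change of the 8 tested genes with stearate (left) and oleate (right) against no fatty acid on the log2(TPM + 1) scale, within DMSO (circles, solid bars) and within CAY10566 (squares, dotted bars), with 95% intervals (3 samples against 3). Filled symbols passed FDR under 0.05: FASN lay at -0.71 and -0.27 for stearate and at -0.76 and -0.46 for oleate, in DMSO and in CAY10566.

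CAY10566 itself was compared with DMSO over 9 samples against 9 with the fatty acid as a covariate. By limma, 0 of the 8 genes passed in either direction (0% of all tested genes in each), and 1, ACSS2, had an unadjusted p under 0.05, as did 5.42% of all tested genes. Its log2 difference was 0.12 (95% interval 0.01 to 0.24, limma adjusted p = 0.894). The differences of the other 7 genes ran from -0.06 for OXSM to 0.07 for FASN, whose 95% interval reached from -0.07 to 0.21. Within single fatty acid groups 0 of the 8 genes passed, where 0% of all tested genes did without fatty acid or with oleate and 0.0145% as higher and 0% as lower with stearate. An unadjusted p under 0.05 was found for 3 of them without fatty acid (10.1% of all tested genes), 4 with stearate (5.52%) and 0 with oleate (4.72%). Among stearate samples, ACSS2 averaged 36.9 ± 3.24 TPM with DMSO and 46.0 ± 0.212 TPM with CAY10566, and FASN 61.0 ± 4.36 and 73.3 ± 4.43 TPM (SD, n = 3). These differences, 0.31 for ACSS2 (limma adjusted p = 0.504) and 0.26 for FASN (limma adjusted p = 0.741) on the log2 scale, did not pass. Both genes had their 3 samples with CAY10566 above the 3 with DMSO. How many of all tested genes separate in this way was not counted.

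Whether CAY10566 altered the fatty acid effects was tested as an interaction, the log2 effect in CAY10566 less that in DMSO. By limma 0 of the 8 genes passed for stearate, where 0.00725% of all tested genes did as higher and 0% as lower, or for oleate, where 0% did. In these tests 5 had an unadjusted p under 0.05 for stearate (9.36% of all tested genes) and 3 for oleate (10.3%). For stearate these were OXSM (0.45, limma adjusted p = 0.452), FASN (0.44, SE 0.13, limma adjusted p = 0.452), ACSS2 (0.33, limma adjusted p = 0.488), SLC25A1 (0.21, limma adjusted p = 0.452) and ACLY (-0.21, limma adjusted p = 0.531). For oleate they were FASN (0.31, limma adjusted p = 0.465), SLC25A1 (0.19, limma adjusted p = 0.449) and ACLY (-0.23, limma adjusted p = 0.468). FASN and SLC25A1 thus had smaller fitted falls with CAY10566 than with DMSO for both fatty acids. Their 95% intervals for stearate, 0.17 to 0.71 for FASN and 0.08 to 0.34 for SLC25A1, did not include 0, but neither passed after adjustment over all tested genes, and both contrasts use the same samples without fatty acid.

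The genes whose pattern was most like that of FASN were listed as a description, by Pearson's r of log2(TPM + 1) over the 18 samples among 10142 genes with a mean of at least 5 TPM. SLC25A1 came first (r = 0.909), before ATOX1, a copper chaperone (0.882), IFITM1, an interferon-induced membrane protein (0.876), CSTB, a cysteine protease inhibitor (0.876), and IFITM3, a relative of IFITM1 (0.874). Among the other tested members, ACSS2 ranked 120 (r = 0.677), ME1 944 (0.302), ACACA 1251 (0.229), MCAT 2175 (0.062) and OXSM 2952 (-0.067), and ACLY ran the other way (-0.537). The 18 points share their fatty acid groups. FASN and SLC25A1 also share a base composition at the high end, with GC contents of 65.3% and 65.6% in the longest transcript, above 97.0% and 97.4% of tested genes, against 39.3% for ME1, above 13.9%. ATOX1, CSTB, IFITM1 and IFITM3 had lower GC contents, from 44.7% for ATOX1 to 58.9% for IFITM3. With each sample's trend on length and GC content removed, the oleate differences were -0.80 for FASN, -0.40 for SLC25A1 and -0.36 for ME1 on the log2 scale, and all passed (limma adjusted p = 0.000361, 9.95e-06 and 3.86e-05). The stearate differences were then -0.51 for FASN (limma adjusted p = 0.00404) and -0.13 for SLC25A1 (limma adjusted p = 0.0364), and that of SLC25A1 no longer passed when a replicate block was added (limma adjusted p = 0.0518).

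**Figure D4:**
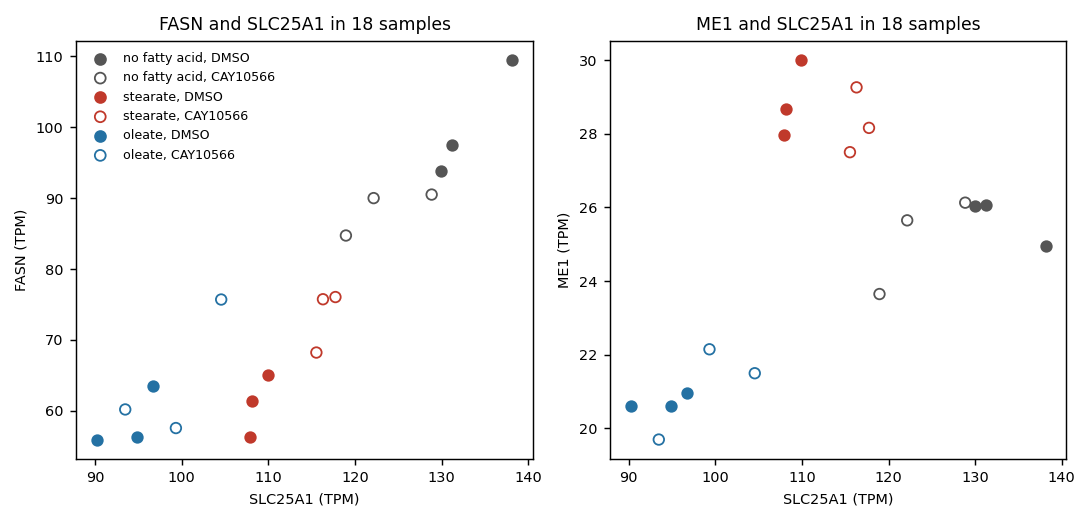
FASN against SLC25A1 (left) and ME1 against SLC25A1 (right) in TPM over the 18 samples, coloured by fatty acid, with filled points for DMSO and open points for CAY10566; axes do not start at 0. FASN and SLC25A1 were highest together in the samples without fatty acid, while ME1 formed 3 separate levels, 27.5 to 30.01 TPM with stearate, 23.65 to 26.13 TPM without fatty acid and 19.7 to 22.15 TPM with oleate.

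Other genes of the pathway were described by lists, each with at most the 2 members of largest change named per comparison. In the SREBP and ChREBP axis, which drives transcription of lipogenic genes, 0 of 14 tested genes passed as higher (13.5% of all tested genes) and 3 as lower (5.97%) with stearate, and 2 as higher (23.0%) and 2 as lower (2.70%) with oleate. The list's median log2 difference was -0.02 with stearate and -0.03 with oleate, against 0.06 and 0.09 for all tested genes. SREBF1, which encodes SREBP-1, averaged 54.0 ± 3.54 TPM without fatty acid, 46.3 ± 4.13 TPM with stearate and 42.2 ± 3.94 TPM with oleate (SD, n = 6), and fell by 0.22 (limma adjusted p = 0.0208) and 0.35 (limma adjusted p = 0.00243) on the log2 scale. INSIG1, an ER protein that retains SREBP and is itself an SREBP target, fell by 0.59 with oleate (limma adjusted p = 1.62e-05), from 64.4 ± 4.81 to 42.5 ± 2.58 TPM. INSIG2, its relative, fell by 0.20 with stearate (limma adjusted p = 0.00454). With size factors the counts became 0 higher and 4 lower with stearate (7.92% and 10.2% of all tested genes under that scaling) and 1 higher and 7 lower with oleate (9.07% and 9.12%).

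In the cytosolic NADPH list, 3 of 9 genes passed as higher (13.5% of all tested genes) and 1 as lower (5.97%) with stearate, and 2 as higher (23.0%) and 6 as lower (2.70%) with oleate, with medians of -0.01 and -0.12 on the log2 scale against 0.06 and 0.09 for all tested genes. IDH1, the cytosolic isocitrate dehydrogenase, averaged 43.9 ± 2.68 TPM without fatty acid, 54.3 ± 2.23 TPM with stearate and 38.1 ± 1.16 TPM with oleate (SD, n = 6). Like ME1, IDH1 rose with stearate, by 0.30 on the log2 scale (limma adjusted p = 3.67e-05), and fell with oleate, by 0.20 (limma adjusted p = 0.0032). Stearate against oleate gave 0.50 for IDH1 on the log2 scale (limma adjusted p = 3.51e-08). With size factors the list's counts were 1 higher and 3 lower with stearate (7.92% and 10.2% of all tested genes under that scaling) and 0 higher and 6 lower with oleate (9.07% and 9.12%).

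In the list of next steps after palmitate, 3 of 10 tested genes passed as higher (13.5% of all tested genes) and 1 as lower (5.97%) with stearate, and 3 as higher (23.0%) and 2 as lower (2.70%) with oleate. The list medians were 0.10 and 0.02 on the log2 scale against 0.06 and 0.09 for all tested genes. SCD, the desaturase that makes oleate from stearate, fell by 0.72 with oleate (limma adjusted p = 0.00021), from 184 ± 13.6 to 111 ± 10.3 TPM, and averaged 173 ± 27.6 TPM with stearate (SD, n = 6). ELOVL1, an elongase of very long saturated chains, fell by 0.21 with stearate (limma adjusted p = 2.2e-05), and ELOVL7, another elongase, rose by 0.32 with stearate (limma adjusted p = 0.00419) and 0.30 with oleate (limma adjusted p = 0.00575). With the length and GC trend removed, the ELOVL7 differences were 0.19 with stearate (limma adjusted p = 0.0419) and 0.17 with oleate, which no longer passed (limma adjusted p = 0.0809). With size factors the list had 1 higher and 2 lower with stearate (7.92% and 10.2% of all tested genes under that scaling) and 1 higher and 3 lower with oleate (9.07% and 9.12%).

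The list of cofactor attachment, phosphorylation and turnover of the malonyl-CoA enzymes had 12 tested genes, of which 3 passed as higher (13.5% of all tested genes) and 1 as lower (5.97%) with stearate and 5 as higher (23.0%) and 0 as lower (2.70%) with oleate. The list medians were 0.11 and 0.19 on the log2 scale against 0.06 and 0.09 for all tested genes. PRKAA1, a catalytic subunit of the kinase AMPK that phosphorylates and inhibits ACACA, rose by 0.32 with stearate (limma adjusted p = 0.00119), or by 0.19 with the length and GC trend removed (limma adjusted p = 0.0217). HLCS, which attaches biotin to the carboxylases, rose by 0.28 with oleate (limma adjusted p = 0.0424), and with size factors 0 of the 12 genes passed with oleate (9.07% of all tested genes as higher and 9.12% as lower under that scaling) and 1 as higher and 1 as lower with stearate (7.92% and 10.2%). Of 11 tested genes for mitochondrial pyruvate and citrate supply, 1 passed as higher with stearate (13.5% of all tested genes) and 2 with oleate (23.0%), and 0 as lower (5.97% and 2.70%), with list medians of 0.04 and 0.05 against 0.06 and 0.09 for all tested genes. DLD, a subunit shared by the pyruvate dehydrogenase complex, rose by 0.14 with oleate (limma adjusted p = 0.00407, 0.288 with size factors), and with size factors 0 genes of that list passed as higher with oleate (9.07% of all tested genes) and 2 as lower (9.12%). The partners of MCAT and OXSM in mitochondrial synthesis and lipoylation, 8 genes, had 0 passing by limma with stearate (13.5% of all tested genes as higher and 5.97% as lower) or with oleate (23.0% and 2.70%), with list medians of -0.05 and 0.03 against 0.06 and 0.09 for all tested genes, and with size factors 2 passed as lower with oleate (9.12% of all tested genes). With the length and GC trend removed, 2 of these partners passed as lower with stearate (10.3%) and 1 with oleate (6.31%). With CAY10566 against DMSO, 0 genes of the 6 lists passed, as 0% of all tested genes did.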

How the data were processed

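RNA was measured in 18 OVCAR5 samples, and conditions, doses and replicate numbers come from the labels. The authors trimmed 100 base paired-end reads with Trim Galore, aligned them to GRCh38 (Ensembl release 99) with STAR 2.7.1a and quantified them with RSEM. The deposited values are TPM per gene, which keep no depth. One line naming no gene was left out, and 56321 identifiers (93.1%) matched a symbol. Coordinates, transcript lengths and GC content come from GENCODE release 44.

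Limma 3.58.1 (R 4.3.3; lmFit, eBayes with a trend) was run on log2(TPM + 1) for the 13789 genes that averaged 1 TPM or more, with Benjamini-Hochberg adjustment over all of them. Fatty acid comparisons used 3 groups of 6 samples, CAY10566 used 9 against 9 with fatty acid as a covariate, and the others a model of 6 conditions. The procedure was tested on simulated data. Figures were drawn with matplotlib 3.10.9. The 9 genes, the lists and the tests were chosen with earlier results of these data known. All 9 were named in full, list genes by a rule of at most 2 per list and comparison, some of which are not reported here. Alternatives were a pseudocount of 0.1, no filter, a limit of 5 TPM on the mean, a fit without trend, size factors, a replicate block, CAY10566 as a covariate and each sample left out. Removing each sample's trend on length and GC content was chosen after seeing the data.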

Additional observations from a re-analysis of the deposited data

Results flagged for a closer look

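ACACB was 0.79 TPM in DMSO replicate 1, while the next highest of the 6 samples without fatty acid was at 0.41 TPM. The gap exceeded Dixon's 95% critical value for 6 samples. Chance alone flags about 1 in 20 groups, ACACB lay under 1 TPM in every sample, and it entered no test.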

How the results depend on the processing

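The counts of members that passed with stearate (4), oleate (4) and stearate against oleate (3) stayed within 1.5 times under every alternative run. Leaving out single samples gave 4 to 5, 4 to 5 and 3 to 4 for these, and in DMSO alone 3 to 4 with stearate and 4 to 5 with oleate. The 2 members lowered beyond 0.32 (log2) by oleate became 4 with size factors, with the length and GC trend removed and with that removal and a replicate block. In CAY10566, the 2 that passed with stearate became 0 with no filter on TPM and 1 with size factors or the trend removed, with or without the block, and ran from 0 to 3 with single samples left out. In CAY10566 the 1 that passed with oleate became 2 with a mean TPM of at least 5, with size factors or with the trend removed, and ran from 1 to 3 with single samples left out. For CAY10566 against DMSO and for the interactions the count was 0 throughout. The cause of these shifts was not tested.

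Some differences that had not passed changed sign. Against control, ACLY with stearate became -0.052 with size factors and -0.05 with the trend removed, and ran from -0.027 to 0.061 with single samples left out. MCAT and OXSM with oleate became -0.072 and -0.075 with size factors and ran from -0.009 to 0.053 and from -0.02 to 0.059 with samples left out, and ACACA with oleate from -0.092 to 0.019. For CAY10566, ME1 became 0.003 with size factors and 0.006 with the trend removed and ran from -0.024 to 0.002, and MCAT ran from -0.007 to 0.034. No pairing by replicate number was seen: deviations of same-numbered samples correlated at -0.18 to 0.103 over 45 pairs (median 0.012). Those of different-numbered samples ran from -0.12 to 0.17 over 90 pairs (median -0.011). A shared batch was not tested. The replicate block alone left the counts of members at 4, 4 and 3, and with the trend removed SLC25A1 with stearate then missed the threshold (limma adjusted p = 0.0518).

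TPM keeps no depth, so counting error cannot be given, and with 3 samples a condition the intervals within CAY10566 or DMSO are wide.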
